A study of Taeniopygia guttata with 169 samples.

Results

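The genes described here are the weakly male-biased genes of zebra finch bone marrow. They made up 0.706% of the 17292 genes in the expression table, 61 of them with a sex difference below and 61 with one above the median of the set. They were chosen on their measured values. On the log2(value + 1) scale, where a value is a read count normalised for library depth, each had a mean of at least 5 over all birds, and its mean in males exceeded that in females by at least 0.25 and less than 0.7. The excess also had to pass 0.15 at each of 4 ages, and the control means of the 4 ages had to lie within 1 of each other. The sex difference, its size at each age, the level and the control age means are therefore descriptions of the choice and carry no test. The tests given are on measures the choice did not use: the methylmercury treatment, the cohort, the interactions of treatment and cohort with sex, age steps in treated birds and RNA integrity. The age steps are in part an exception, since the limit on control age means also bears indirectly on treated birds.

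In birds the sexes differ in their sex chromosomes: a male has a pair of Z chromosomes, whereas a female has a Z and a small W. Birds have no known inactivation of a whole Z chromosome, and studies of chicken and zebra finch describe dosage compensation that is incomplete and varies from gene to gene. Male-to-female ratios of Z genes accordingly spread between equality and the ratio of gene copies. A ratio of 2, the ratio of Z copies, corresponds to a difference of 1 on the log2 scale. The working name of these genes, partial compensation candidates, refers to that background. The identifiers could not be paired with symbols or chromosomes (0 matched the reference table used), so whether any of these genes lies on the Z was not determined here, no gene's function is given, and the genes are called weakly male-biased throughout. For the same reason the marrow label could not be checked against marker genes.

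Whole bone marrow was sampled from zebra finches (Taeniopygia guttata) given methylmercury (MeHg, an organic mercury compound) at 1.2 ppm in food, or labelled as controls, at day 6, 18, 35 or 90 of age. The birds were bred from stock of varied earlier exposure, and no strain or genetic modification is labelled. The libraries used were 82 from MeHg birds and 76 from controls, 87 from males and 71 from females, and 85 from cohort 2 and 73 from cohort 1. At day 6, 15 MeHg and 17 control birds were used; there were 25 and 21 of day 18, 21 and 19 of day 35, and the same numbers of day 90. Males and females numbered 16 and 16, 26 and 20, 20 and 20, and 25 and 15 at these ages. Among MeHg birds they numbered 6 and 9, 16 and 9, 11 and 10, and 14 and 7. Control males and females numbered 10 and 7, 10 and 11, 9 and 10, and 11 and 8. The series addresses the action of a sublethal dose on blood formation.

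Libraries held 4572638 to 14968673 assigned reads, with a median of 7637898. The weakly male-biased genes took 0.878% of the normalised counts, had medians of 32 to 4275 reads per library, and had at least 1 read in every library. The labels do not say that each library is a separate bird. Each was counted as 1 bird, and p-values measure the spread between libraries. A further 3 females of day 90, 1 MeHg and 2 control, stand apart from the other females of that age. All 3 are of cohort 2, and they were left out of the choice and of the main tests. Over all genes with a mean log2 value of at least 5, their median absolute deviation from the day 90 female means was 0.43 to 0.52, against 0.17 to 0.29 in the 15 other females. RNA integrity (RIN) averaged 7.64 ± 0.61 (SD, n = 27) in birds of day 6, 8.66 ± 0.40 (n = 32) in those of day 18, 8.84 ± 0.38 (n = 34) in those of day 35 and 8.87 ± 0.40 (n = 31) in those of day 90. In whole marrow, fewer cells of a type and less RNA per cell cannot be told apart.

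The sex difference of the weakly male-biased genes had a median of 0.57 on the log2 scale, a male-to-female ratio of 1.48, with quartiles of 0.47 and 0.64 and a range of 0.257 to 0.695 (ratios of 1.19 to 1.62). The genes crowded toward the upper limit: 3 lay between 0.25 and 0.3, 16 between 0.3 and 0.4, 21 between 0.4 and 0.5, 35 between 0.5 and 0.6, and 47 between 0.6 and 0.7. The limit at each age made part of this shape. Among genes within the limits on level and control age means, it kept 16 of 29 between 0.3 and 0.4. It kept 21 of 23 between 0.4 and 0.5, 35 of 36 between 0.5 and 0.6, and all 47 between 0.6 and 0.7. In all it removed 30 genes, the rest of them between 0.25 and 0.3, where it kept 3. Above the upper limit, among genes that met the other criteria, 47 lay between 0.7 and 0.8. A further 61 lay between 0.8 and 0.9, 26 between 1 and 1.1, 3 between 1.1 and 1.2 and 2 between 1.2 and 1.3. The bin between 0.9 and 1 held 45.9% of all such genes at or above 0.7. The distribution held no gap at 0.7. Among genes that met the limits on level and control age means, the lowest bin between 0.3 and 1 was that between 0.4 and 0.5, with 23 genes. The 257 genes at or above 0.7 are called strongly male-biased below and had a median of 0.92, a ratio of 1.89. All 10612 genes with a mean log2 value of at least 5 had a median difference of -0.03. The reverse choice, female bias of the same size at every age, gave 13 genes.

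**Figure D1:**
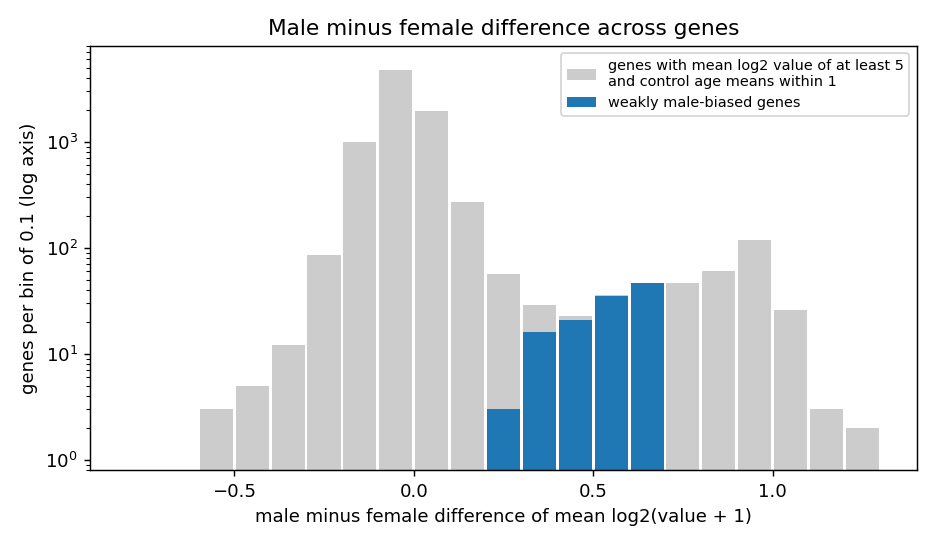
Number of genes (log axis) per bin of 0.1 of the male minus female difference of mean log2(value + 1), for genes with a mean of at least 5 and control age means within 1 (grey) and for the weakly male-biased genes among them (blue). Grey counts fall to 23 genes between 0.4 and 0.5 and rise again to a peak between 0.9 and 1, and the blue bars make up all 47 genes between 0.6 and 0.7.

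The genes just inside and just outside the limits show how the choice divides this range. Just above 0.25, ENSTGUG00000000961 had a difference of 0.257 and normalised counts of 185 (lowest), 299 (median) and 517 (highest) in males, against 190, 246 and 382 in females. ENSTGUG00000013594, at 0.278, had 20.3, 59.7 and 188 in males, against 17.4, 50.4 and 151.5 in females. In both genes nearly the whole female range lay within the male range. Just below the limit, ENSTGUG00000004046 and ENSTGUG00000024019 had differences of 0.245 and 0.238. Near the upper limit, ENSTGUG00000000669 had 92.2, 145.6 and 259 normalised counts in males, against 59.3, 91.8 and 157.9 in females. ENSTGUG00000001274 had 182, 269 and 633 in males, against 87.8, 168.7 and 302 in females. In each of these genes the male median was close to the highest females, and the difference was 0.695. ENSTGUG00000005780 and ENSTGUG00000001169, both at 0.703, lay just above the limit.

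The most abundant of the weakly male-biased genes was ENSTGUG00000005550. It had 2093, 5167 and 7443 normalised counts (lowest, median, highest) in males, against 1759, 3398 and 6078 in females, with means of 5123 ± 1196 (SD, n = 87) and 3388 ± 855 (SD, n = 71). Of the 87 males, 77 exceeded the female median, and the ranges overlapped widely. Its difference was 0.42, 0.60, 0.52 and 0.70 at day 6, 18, 35 and 90. The next in level, ENSTGUG00000001582, had 2260, 3413 and 5925 in males, against 1437, 2105 and 3135 in females. Every male lay above the female median in this gene, although the ranges still overlapped. Its differences were 0.79, 0.70, 0.73 and 0.63 at the 4 ages in order. At the median of the set, ENSTGUG00000000974 had 264, 467 and 833 in males, against 145.2, 313 and 543 in females, and ENSTGUG00000002565 had 100, 282 and 588 in males, against 67.3, 199 and 337 in females. Both had a difference of 0.57, and both showed a long zone shared by the sexes.

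The weakly male-biased genes were of ordinary level. Their mean log2 level had a median of 8.38 (range 5.03 to 12.01), against 8.42 in the strongly male-biased genes and 8.16 in all genes with a mean of at least 5. Across the weakly male-biased genes, the correlation of level with sex difference was -0.0035 (Pearson) and -0.063 (Spearman). These are descriptions over genes measured in the same libraries, and the difference was limited by the choice.

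By age, the median difference was 0.46, 0.55, 0.58 and 0.59 at day 6, 18, 35 and 90. The strongly male-biased genes had medians of 0.93, 0.93, 0.87 and 0.91 at these ages. Single genes ranged from 0.17 to 0.84, from 0.22 to 0.80, from 0.23 to 1.07 and from 0.20 to 1.13 at these ages. The age of the largest difference was day 6 for 20 of the weakly male-biased genes, day 18 for 17, day 35 for 44 and day 90 for 41. Among the strongly male-biased genes the same counts were 57, 65, 70 and 65 of 257. Among all 10612 genes with a mean log2 value of at least 5 they were 2401, 2143, 3319 and 2749. Day 35 and day 90 were thus the most frequent ages there too. A total of 26 weakly male-biased genes stayed above 0.5 at all 4 ages, and 7 passed 0.9 at some age. Across the weakly male-biased genes, differences at day 6 and day 18 had a Pearson correlation of 0.45, day 18 and day 35 of 0.43, day 18 and day 90 of 0.39, day 6 and day 90 of 0.28, day 35 and day 90 of 0.20, and day 6 and day 35 of 0.11. The ages share no libraries, and the limits of the choice narrow these correlations. RIN was lowest at day 6, where the median difference was lowest, and its part in the day 6 values was not tested.

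**Figure D2:**
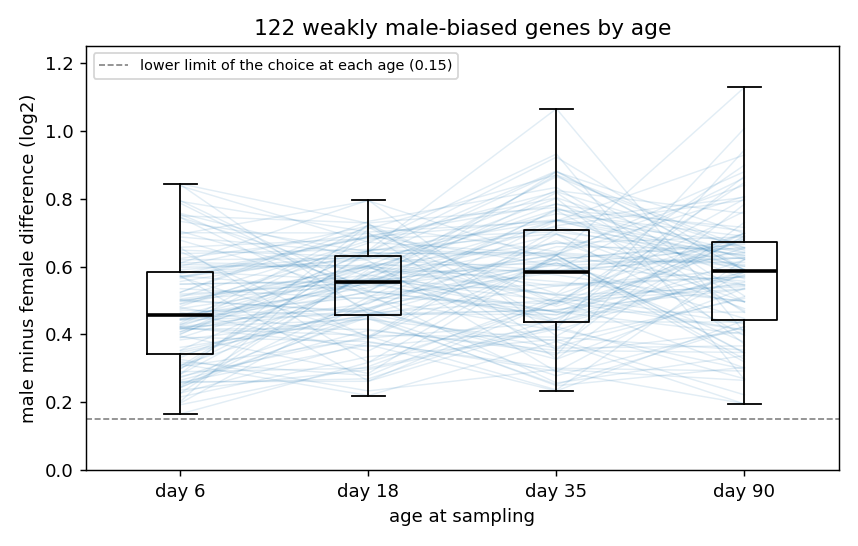
Male minus female difference (log2) of each of the weakly male-biased genes at the 4 ages (blue lines, 1 per gene), with boxes for the quartiles, black lines for the medians and whiskers to the lowest and highest gene. The medians are 0.46, 0.55, 0.58 and 0.59 in order of age, and the dashed line marks the lower limit of 0.15 that the choice set at each age.

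The sexes overlapped in every weakly male-biased gene: in 0 of them did all males exceed all females. This was so in 8 of the 257 strongly male-biased genes, against a background of 0.0754% of genes with a mean log2 value of at least 5, and nothing is read from it since the choice used the sexes. Taking every pair of a male and a female, the male had the higher value in a median of 84.1% of pairs per gene, with a range of 60.7% to 99.4%. In the strongly male-biased genes the median was 96.6%. The share passed 90% in 34 weakly and 220 strongly male-biased genes, and it was below 75% in 14 and 0 of them. In units of the spread between birds of the same sex and group, the difference had a median of 1.83 SD (range 0.37 to 4.00), and it exceeded 1 SD in 110 of these genes. The overlap therefore differed much between genes that the same limits had admitted.

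Averaged over the weakly male-biased genes, each bird's deviation from the gene means placed the sexes apart. Males lay between 0.05 and 0.50, with a median of 0.24, and females between -0.51 and -0.03, with a median of -0.32. No male overlapped a female, a separation that the choice of the genes on sex builds in. The male medians were 0.20, 0.23, 0.26 and 0.25 at day 6, 18, 35 and 90, and the female medians -0.30, -0.33, -0.32 and -0.32. By treatment, MeHg males had a median of 0.22 and control males of 0.26, and MeHg females had -0.33 and control females -0.32. The SD between birds of an age was 0.09 to 0.12 in males and 0.10 to 0.12 in females. Plate was not removed from these ranges and SDs. On plate I, males lay between 0.34 and 0.50 and females between -0.19 and -0.03, at the upper end for both sexes. The lowest male, at 0.05, was on plate F and the lowest female, at -0.51, on plate K.

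**Figure D3:**
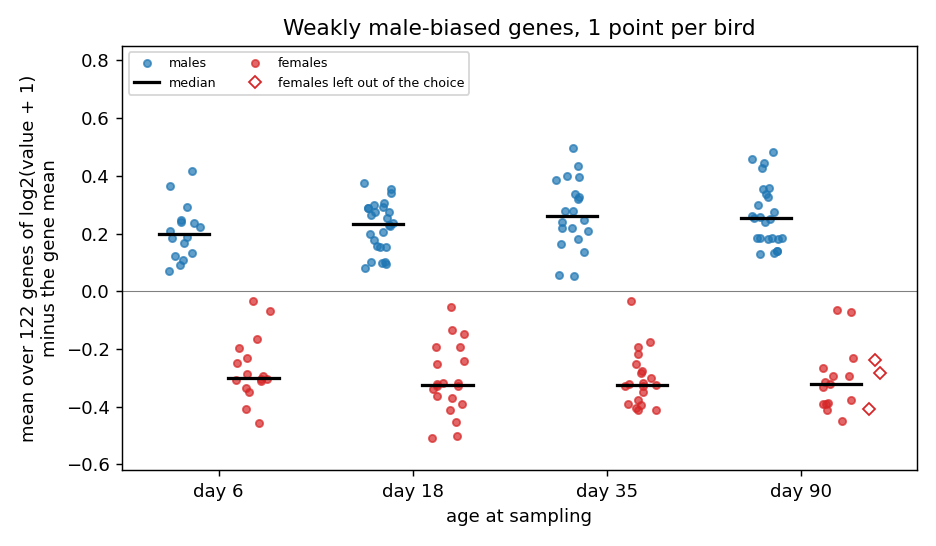
Mean over the weakly male-biased genes of log2(value + 1) minus the gene mean, 1 point per bird, with males (blue) left of females (red) at each age, black lines for medians and open diamonds for the 3 day 90 females left out of the choice. Males span 0.05 to 0.50 and females -0.51 to -0.03, and the diamonds lie at -0.41, -0.28 and -0.24. Plate was not removed from these values.

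The 3 day 90 females that the choice did not use give values from outside it. Their mean deviations were -0.41, -0.28 and -0.24, within the range of the 15 other day 90 females (-0.45 to -0.06, median -0.32). That range mixes plates, and its highest birds, at -0.06 and -0.07, were on plate I. The left-out female at -0.24 was also on plate I and lay below all used females of that plate (-0.19 to -0.03). Those at -0.41 and -0.28 lay within the range of used females of their own plates, F and J. The 3 females lay below the day 90 male mean in 93, 88 and 85 of the weakly male-biased genes, or 76.2%, 72.1% and 69.7%. These were lower shares than in any of the other females (81.97% to 100%, median 95.9%). The 25 males of that age lay below it in 18.9% to 72.1% of the genes. For these birds the matching share over all genes was not computed, so these shares are descriptions. The median shortfall against the male mean was 0.43, 0.29 and 0.31 on the log2 scale in the 3 birds, against 0.30 to 0.74 in the others. Since these birds had been picked out by earlier results of the same data, no test was made.

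Splits of the birds that the choice did not make gave like differences. Within the 8 plates that held at least 3 birds of each sex, the median difference of the genes was 0.53 to 0.61, and 95.1% to 100% of the genes were above 0. It was 0.58 in cohort 2 and 0.53 in cohort 1, with all of the genes above 0 in both. In MeHg birds it was 0.56 (single genes 0.22 to 0.79) and in control birds 0.56 (0.25 to 0.78). At day 6, 18, 35 and 90 the medians were 0.48, 0.54, 0.53 and 0.58 in MeHg birds and 0.43, 0.55, 0.64 and 0.57 in control birds. These birds are the ones on which the genes were chosen, so the sign was fixed in advance for the whole and is described here for its parts.

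Whether the sex difference varied with treatment was tested by the interaction of MeHg with sex. None of the weakly male-biased genes was called (limma, adjusted p under 0.05 over 14042 genes), and the background was 0% of all genes tested. At an unadjusted p under 0.05 there were 5 of the weakly male-biased genes (4.10%) and 487 of all genes (3.47%), and edgeR called 0 genes. The difference of differences, MeHg minus control, had a median of 0.02 over the weakly male-biased genes and ranged from -0.26 to 0.19, with standard errors of 0.04 to 0.24. The gene with the smallest p was ENSTGUG00000000245, whose sex difference was lower in MeHg birds by 0.26 ± 0.09 (SE; limma, adjusted p = 1.00). The intervals of single genes are too wide to show equality.

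The interaction of sex with cohort gave the same count: 0 of the genes called, against a background of 0% (limma). At an unadjusted p under 0.05 there were 7 of the weakly male-biased genes (5.74%) and 853 of all genes (6.07%). edgeR called 0 of the weakly male-biased genes and 1 of all genes. Estimates, cohort 2 minus cohort 1, ranged from -0.38 to 0.38 with a median of -0.00098, and standard errors of 0.04 to 0.25. The smallest p belonged to ENSTGUG00000001853, with a larger sex difference in cohort 2 by 0.31 ± 0.11 (SE; limma, adjusted p = 0.711).

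The effect of MeHg was the main question of the series. For the difference between MeHg and control birds averaged over the 4 ages, 8 of the weakly male-biased genes were called (6.56%), against a background of 7.73% of all genes tested. Of these, 1 was higher (0.820%) and 7 were lower (5.74%) in MeHg birds, against backgrounds of 3.95% and 3.78%. The total was near the background. The title code is shared by several birds and may mark kin or cage. With this code, taken separately in each cohort, as a random effect, 2 of the genes (1.64%) and 3.03% of all genes tested were called. The split toward lower values was a count of 8 genes and was not tested as a split. The median difference of the weakly male-biased genes was -0.02 and that of all genes 0.00045, and 48 of the weakly male-biased genes were above 0. Those called differed by 0.08 to 0.44 on the log2 scale, in each case less than the gene's own sex difference, and 7 of the 8 had 1 direction at all 4 ages. The choice set a lower limit on the sex difference, and the calls rest on the mean of the same 4 ages. Both counts are therefore descriptions only.

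ENSTGUG00000001233 fell the most. It had 22.8, 83.4 and 215 normalised counts (lowest, median, highest) in MeHg birds, against 29.2, 125.5 and 262 in control birds, with means of 89.4 ± 36.2 (SD, n = 82) and 121.5 ± 50.3 (SD, n = 76). Of the 82 MeHg birds, 68 lay below the control median, and the ranges overlapped. The log2 difference was -0.44 ± 0.08 (SE; limma, adjusted p = 0.000102), and it was -0.37 in females alone, where the adjusted p was 0.263. The medians in MeHg and control birds were 70.5 and 128.7 in birds of day 6, 91.7 and 96.3 in those of day 18, 73.1 and 127.2 in those of day 35, and 96.8 and 128.7 in those of day 90. The MeHg median was thus the lower of the pair at every age, with the narrowest gap at day 18.

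**Figure D4:**
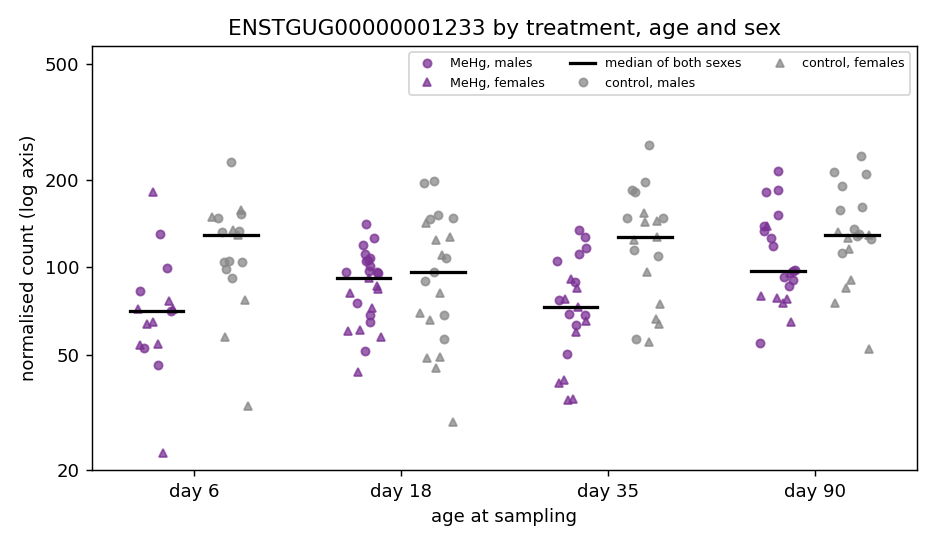
Normalised counts (log axis) of ENSTGUG00000001233 in each bird by age, with MeHg birds (purple) left of control birds (grey), circles for males, triangles for females and black lines for the median of both sexes. The MeHg median lies below the control median at every age, for example 70.5 against 128.7 at day 6, and the points overlap throughout. These medians pool the sexes, whose mix differed between the treatments.

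ENSTGUG00000000120 also fell. It had 89.6, 276 and 536 normalised counts in MeHg birds, against 94.8, 303 and 687 in control birds, a log2 difference of -0.28 ± 0.08 (SE; limma, adjusted p = 0.0130). The 1 gene that rose, ENSTGUG00000006911, had 51.04, 131.8 and 296 in MeHg birds, against 49.6, 114.1 and 251 in control birds, a difference of 0.16 ± 0.05 (adjusted p = 0.0473). Its adjusted p ran up to 0.514 over the alternatives tried, where it was called in 5 of 12. ENSTGUG00000000120 was called in 8 of 12 alternatives, with an adjusted p of up to 0.294. In all 3 genes the treatments shared most of their range.

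At single ages few genes were called. At day 6, 0 of the weakly male-biased genes were called (limma), against a background of 0.0427%. At day 18 there were 0, against 0.207%, at day 35 there was 1 (0.820%), against 0.135%, and at day 90 there were 0, against 0.128%. At an unadjusted p under 0.05 there were 2, 12, 15 and 16 of the weakly male-biased genes at the 4 ages in order. As shares these were 1.64% against 6.10% of all genes tested, 9.84% against 12.4%, 12.3% against 9.59% and 13.1% against 11.5%. edgeR called 0 at day 6, 18 and 90, against 0.214%, 0.292% and 0.256% of all genes tested. At day 35 it called 2 (1.64%), against 0.292%. The gene called at day 35 was ENSTGUG00000001233, with a log2 difference of -0.73 ± 0.16 (SE; limma, adjusted p = 0.0204), and it also had the smallest p at day 6 (-0.61 ± 0.19, adjusted p = 0.271). The smallest p at day 18 was that of ENSTGUG00000001277 (-0.22 ± 0.06, adjusted p = 0.0668) and at day 90 that of ENSTGUG00000000245 (-0.26 ± 0.09, adjusted p = 0.217).

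A change of the MeHg difference with age was called in 0 of the weakly male-biased genes, against a background of 0% (limma, 3 degrees of freedom). At an unadjusted p under 0.05 there were 8 of the weakly male-biased genes (6.56%) and 681 of all genes (4.85%). edgeR called 0 of the weakly male-biased genes and 3 of all genes. The smallest p was that of ENSTGUG00000001243 (adjusted p = 0.988). Single-age calls of ENSTGUG00000001233 therefore do not show that its difference varied with age.

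A change of the MeHg difference with cohort was called in 0 of the weakly male-biased genes (limma and edgeR), against a background of 2.74%. At an unadjusted p under 0.05 there were 6 of the weakly male-biased genes (4.92%) and 2041 of all genes (14.5%). The smallest p was that of ENSTGUG00000017532, whose MeHg difference was lower in cohort 2 by 0.19 ± 0.06 (SE; limma, adjusted p = 0.0681). The share of the weakly male-biased genes lay below that of all genes by both counts, which is a description of these lists. Among the strongly male-biased genes 0.389% were called (limma), also below the share of all genes.

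Cohort itself was called in 7 of the weakly male-biased genes (5.74%), 6 higher and 1 lower in cohort 2, against backgrounds of 11% in all, 6.02% higher and 5.01% lower. Among the strongly male-biased genes the share called was 5.06%. ENSTGUG00000027549 rose in cohort 2: it had 129.5, 293 and 773 normalised counts (lowest, median, highest) there, against 98.5, 259 and 577 in cohort 1, a log2 difference of 0.27 ± 0.07 (SE; limma, adjusted p = 0.00511). ENSTGUG00000000120 was also higher in cohort 2, by 0.27 ± 0.08 (adjusted p = 0.0172). ENSTGUG00000002279 was lower, with 236, 381 and 718 in cohort 2, against 216, 448 and 974 in cohort 1, a difference of -0.17 ± 0.06 (adjusted p = 0.0288). With the title code as a random effect 2 of the genes (1.64%) and 4.56% of all genes tested were called, and ENSTGUG00000000120 and ENSTGUG00000002279 were not (adjusted p = 0.0659 and 0.113). With the 3 day 90 females that stand apart, 16 of the weakly male-biased genes (13.1%) and 16.0% of all genes tested were called. All 3 of these females are of cohort 2, so they enter 1 side of the comparison only.

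Age steps were examined in MeHg birds, whose age means the choice did not limit directly. Between day 6 and day 18, 76 of the weakly male-biased genes were called (62.3%), 38 higher and 38 lower at day 18, against backgrounds of 59.1%, 30.1% and 29%. Between day 18 and day 35 the count was 44 (36.1%), 20 higher and 24 lower at day 35, against 32.2%, 16.9% and 15.3%. Between day 35 and day 90 it was 14 (11.5%), 8 higher and 6 lower at day 90, against 6.32%, 4.67% and 1.65%, and it was 7 (5.74%), against 3.32%, with the 3 females that stand apart. Among the strongly male-biased genes, 9.73% were called between day 35 and day 90. At least 1 step was called in 98 of the weakly male-biased genes, none in 24 and all 3 in 2. The matching shares of all genes tested were not computed, so nothing is read from these 3 counts. The median absolute change was 0.29, 0.14 and 0.09 for the 3 steps in order, and 1 gene passed 1 on the log2 scale. The choice kept control age means within 1, and 95.1% of the genes also had MeHg age means within 1, against 95.8% of the 8542 genes under the same limits on level and control age means. Of all 10612 genes with a mean log2 value of at least 5, 79.8% had MeHg age means within 1. The limit thus bears on MeHg birds too. The backgrounds of the steps include genes outside it, so the shares beside them are descriptions.

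ENSTGUG00000000417 rose at day 18: it had 601, 1109 and 1563 normalised counts there, against 292, 505 and 1206 at day 6, a log2 difference of 0.79 ± 0.12 (SE; limma, adjusted p = 2.2e-09). ENSTGUG00000000072 also rose, with 138.3, 319 and 738 at day 18, against 97.2, 170.4 and 620 at day 6, a difference of 0.79 ± 0.18 (adjusted p = 6.3e-05). The ages overlapped over most of the range in ENSTGUG00000000072, and less in ENSTGUG00000000417. ENSTGUG00000025604 fell, with 34.5, 77.6 and 117.7 at day 18, against 91.2, 133.9 and 203 at day 6, a difference of -1.08 ± 0.10 (adjusted p = 1.55e-17). ENSTGUG00000000414 fell too, with 10.7, 28.4 and 69.4 at day 18, against 20.3, 44.3 and 115.7 at day 6, a difference of -0.81 ± 0.22 (adjusted p = 0.000671). The ages overlapped in both genes that fell. RIN was also lower at day 6 than at day 18, and its part in this step was not tested.

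Between day 18 and day 35 the gene that rose most was ENSTGUG00000002982. It had 455, 840 and 1739 normalised counts at day 35, against 355, 611 and 1156 at day 18, a log2 difference of 0.53 ± 0.09 (SE; limma, adjusted p = 1.2e-06). ENSTGUG00000000606 rose with 303, 589 and 1084 at day 35, against 249, 437 and 658 at day 18, a difference of 0.49 ± 0.07 (adjusted p = 1.34e-07). In both genes the later birds reached higher maxima and shared the lower part of the range. ENSTGUG00000024149 fell the most, with 154.8, 293 and 952 at day 35, against 177, 418 and 1694 at day 18, a difference of -0.64 ± 0.16 (adjusted p = 0.000787). ENSTGUG00000002670 fell with 271, 407 and 590 at day 35, against 367, 600 and 867 at day 18, a difference of -0.43 ± 0.07 (adjusted p = 3.24e-07). The ages overlapped in both.

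Between day 35 and day 90, ENSTGUG00000002265 rose, with 103.9, 241 and 973 normalised counts at day 90, against 80.9, 132.7 and 393 at day 35, a log2 difference of 0.71 ± 0.17 (SE; limma, adjusted p = 0.00401). ENSTGUG00000000133 rose with 30.2, 69.6 and 142.3 at day 90, against 17.6, 45.95 and 57.98 at day 35, a difference of 0.59 ± 0.14 (adjusted p = 0.00276). The highest birds of day 35 lay below the day 90 median in ENSTGUG00000000133, but not in ENSTGUG00000002265. The normalised counts given for all age steps pool the sexes, whereas the log2 differences come from a fit with sex. Males and females among MeHg birds numbered 11 and 10 at day 35, and 14 and 7 at day 90. ENSTGUG00000027549 fell, with 98.5, 240 and 541 at day 90, against 168.05, 294 and 624 at day 35, a difference of -0.40 ± 0.13 (adjusted p = 0.0444). ENSTGUG00000002670 was lower again, with 202, 348 and 815 at day 90, a difference from day 35 of -0.25 ± 0.07 (adjusted p = 0.0166). The ages overlapped in both genes that were lower. With the 3 females that stand apart, the calls of ENSTGUG00000000133, ENSTGUG00000027549 and ENSTGUG00000002670 were lost (adjusted p = 0.0928, 0.0961 and 0.104), and that of ENSTGUG00000027549 also with extraction batch in place of plate (adjusted p = 0.0705).

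**Figure D5:**
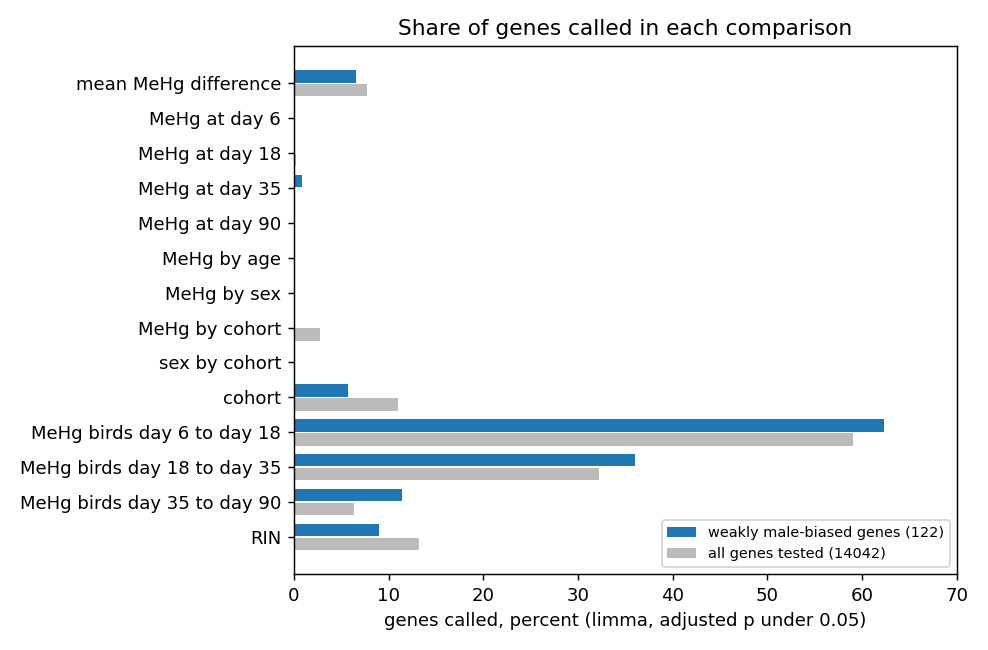
Share of genes called (limma, adjusted p under 0.05, in percent) in each comparison, for the weakly male-biased genes (blue) above all 14042 genes tested (grey). The share is 6.56% against 7.73% for the mean MeHg difference, 5.74% against 11% for cohort and 11.5% against 6.32% for the step between day 35 and day 90 in MeHg birds.

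RNA integrity was called in 11 of the weakly male-biased genes (9.02%), 5 with higher and 6 with lower values at higher RIN, against backgrounds of 13.2%, 7.43% and 5.8%. Per RIN unit, ENSTGUG00000021379 was higher by 0.34 ± 0.09 on the log2 scale (SE; limma, adjusted p = 0.00981) and ENSTGUG00000001894 by 0.33 ± 0.11 (adjusted p = 0.0368), whereas ENSTGUG00000002681 was lower by 0.26 ± 0.08 (adjusted p = 0.0192). ENSTGUG00000000417 was lower by 0.22 ± 0.07 per RIN unit within groups (limma, adjusted p = 0.0310), and its age step was not tested against RIN. This call was lost with the title code as a random effect (adjusted p = 0.0573), and that of ENSTGUG00000001894 with the 3 females that stand apart or with extraction batch in place of plate (highest adjusted p = 0.0960). Among the strongly male-biased genes, 53 of 257 were called for RIN (20.6%).

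The spread between birds of the same sex, treatment and age had a median SD of 0.30 on the log2 scale in the weakly male-biased genes, 0.28 in the strongly male-biased genes and 0.35 in all genes with a mean of at least 5. The SD had a median of 0.29 in males and 0.32 in females, and it was the larger in males in 39 of the genes (31.97%). The corresponding shares were 29.2% of the strongly male-biased genes and 46.6% of all genes at that level. Across the weakly male-biased genes, the correlation of level with SD was -0.47 (Pearson), so the more abundant genes varied less between birds.

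After removal of group and sex means, the weakly male-biased genes had a mean correlation of 0.104 over all pairs. The mean was 0.122 within the strongly male-biased genes, 0.076 between the weakly and the strongly male-biased genes, and 0.00089 between the weakly male-biased genes and the remaining 10233. It was 0.106 within males and 0.103 within females. After plate and cohort were also removed, the means were 0.043 within the weakly male-biased genes, 0.080 within the strongly male-biased genes and 0.026 between them. These correlations run over the same libraries and are descriptions. The first principal component was taken from residuals scaled to equal variance in every gene, with plate and cohort left in. It held 19.1% of the variance in the weakly male-biased genes, 22.6% in the strongly male-biased genes and 14.9% in all genes with a mean of at least 5. The sets differ in their number of genes, on which such a share depends.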

How the data were processed

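Per the labels' protocols, RNA was extracted from whole marrow, messenger RNA was selected on oligo(dT) beads and libraries were built with NEBNext Ultra II reagents. Counting by featureCounts of Subread, and DESeq2 1.30.1 under R 4.0.2, are listed in the submitters' processing notes. For build, annotation and strand the setting was not given in the sources used here; overlapping, antisense or near-identical genes may therefore share reads. The deposited signal is a normalised read count per gene: dividing by the value of 1 read gave whole reads for 100% of values (relative tolerance 1e-06), with size factors of 0.574 to 1.75.

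Of 169 labelled libraries, 8 were not analysed here. Treatment, age, sex, cohort, plate and RIN (given for 124 of the 158 libraries used) came from the labels. Between libraries of a group the chi-square per gene was never under 12.5, so none were merged. A gene entered the tests if 15 or more libraries reached a value of 10, which kept 14042 genes and among them all 122 described. The fit was limma 3.58.1 (R 4.3.3; trend, robust) on log2(value + 1), a scale that understates changes of low genes, with 8 treatment-by-age groups, sex, cohort and plate, and Benjamini-Hochberg adjustment over all genes tested. edgeR 4.0.16 on the recovered reads was an alternative. The scripts were tested on simulated data.

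The members, lists and tests were chosen with earlier results of these data known. Named genes are the 2 highest in level, the 2 at the median sex difference, 2 on each side of each limit, and per test up to 2 called each way with the largest differences, or else the smallest p. Lists of Z, stress, proliferation and cell type genes could not be used, since 0 identifiers matched a symbol.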

Additional observations from a re-analysis of the deposited data

How the results depend on the processing

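With a pseudocount of 0.5 the choice gave the same genes, with TMM scaling it gained 2, with the 3 day 90 females it lost 14 and gained 12, and with the sex difference taken from the fit with cohort and plate it lost 7 and gained 7. Of the recomputed counts, 98 stayed within 1.5 times the reported one and 10 did not. Counts of 0 that stayed at 0 are among the 98, so this tally says little about tests in which no gene was called. For the mean MeHg difference, 8 genes became 2 with title code as a random effect on the same libraries, where the cause was not tested. They became 2 in males alone, 0 in females alone, 1 in cohort 1 alone and 3 in cohort 2 alone, subsets with fewer libraries, and 2 with RIN as a covariate, where both the libraries and the covariates changed. In these settings 0.605% to 4.22% of all genes were called, against 7.73% as reported. For MeHg at day 35, edgeR called 2 (1.64%, against 0.292% of all genes tested) in place of 1. For cohort, 7 became 16 with the 3 females, which are all of cohort 2, and 2 with title code as a random effect. For day 35 to day 90 in MeHg birds 14 became 7 with the 3 females. The causes were not tested. Among values of named genes under alternatives, 198 kept their direction and side of the threshold, 21 kept their direction but lost the call, and 0 reversed. Title codes belong to 1 treatment each, and birds of 1 code may be related or housed together. No paired analysis was possible because replicate numbers were given in accession order and do not pair birds. Title codes, many of which span ages and sexes, entered as a random effect, taken separately in each cohort. The limit of the choice on level leaves weakly expressed genes undescribed, and that on control age means leaves out genes that vary more with age. The 10-count filter acted on the genes tested as background.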

Other observations

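The limits of the choice removed genes as follows. Of 8542 genes with a mean log2 value of at least 5 and control age means within 1, 30 had a male excess of at least 0.25 and less than 0.7 but missed the limit of 0.15 at some age. A further 15 genes met the limits on the difference and the level and were lost to the limit on control age means. On the female side, 39 genes lay in the same window of the difference, and 13 of them met the limit at every age.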
